A study of Mus musculus with 4 samples.

Results

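The muscle atrophy ubiquitin ligases examined here are 9 genes, taken by name from 21631 protein-coding genes of the RefSeq annotation, that encode enzymes placing ubiquitin on proteins of wasting muscle or of the signalling around it. Every Deaf1 ChIP-seq peak whose summit lay inside the gene's span, or within 5 kb of it, was assigned to the gene. The genes are the F-box genes Fbxo32, Fbxo30, Fbxo31, Fbxo21 and Fbxo40, the RING genes Trim63 and Traf6, the U-box gene Stub1 and the HECT gene Nedd4. The data come from C2C12, an established mouse myoblast line that fuses into myotubes in culture. Labels on the samples name the cells myocytes, and the series' own text speaks of myoblasts that had differentiated, so the stage is not settled. There were 2 samples of chromatin precipitated with an antibody against the transcription factor Deaf1 and 2 of input chromatin, all of 1 condition with no treatment named, and the inputs entered no comparison. Peaks hold no expression values, so markers of the muscle state were not checked.

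Ubiquitin reaches a protein through an activating enzyme (E1), a conjugating enzyme (E2) and a ligase (E3) that selects the target. F-box proteins are the target-binding subunits of SCF ligases, which also hold Skp1, Cul1 and Rbx1. RING and U-box ligases pass ubiquitin straight from the E2 to the target, while HECT ligases first take it onto themselves. In wasting muscle FOXO transcription factors raise several of these ligases, and the proteasome then degrades the tagged proteins. Deaf1 is a transcription factor whose SAND domain recognises DNA with the core TTCG.

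A Deaf1 peak found in both replicates stood within 5 kb of 8 of the 9 ligase genes, where 63.4% of all protein-coding genes had one. The same 8 genes had it within 1 kb of the gene start, against 49.8% of all protein-coding genes. For genes of unknown strand, Fbxo32 among them, a shared peak within 1 kb of either end counted as a start peak. A peak counted as shared when peaks of both replicates overlapped by at least 1 bp with both summits in the window. Fbxo40 was the gene without one. With 1 condition there is no contrast to test, and 9 genes chosen by name are a description, not a sample of ligases.

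The promoters of 5 ligase genes are shown because they span the range seen. It runs from no shared peak (Fbxo40) and the weakest shared peak (Trim63) to high folds at Fbxo31, Stub1 and, in replicate 1, Nedd4. Each promoter is the stretch of 250 bases before a RefSeq transcription start in GRCm38.p6, the assembly behind mm10, read 5′ to 3′ on the gene's strand. Capitals mark TTCG or its reverse complement CGAA, and, in Trim63, TGTTTAC, the reverse complement of the FOXO element GTAAACA. Of the promoters not printed, those of Fbxo30 and Fbxo21 hold TTCG or CGAA. That of Traf6, whose start peak had a fold of 17.6 in both replicates, holds neither. By the lower of the replicate folds, Fbxo21 (22.3) and Traf6 (17.6) stood above Nedd4 (15.2).
Trim63 promoter, chr4:134314870-134315119, plus strand: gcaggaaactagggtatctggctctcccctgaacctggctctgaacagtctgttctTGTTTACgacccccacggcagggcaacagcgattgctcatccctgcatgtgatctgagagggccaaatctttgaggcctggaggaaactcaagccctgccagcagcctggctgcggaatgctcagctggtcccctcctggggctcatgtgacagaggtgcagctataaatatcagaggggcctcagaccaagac
Fbxo40 promoter, chr16:36990468-36990717, minus strand: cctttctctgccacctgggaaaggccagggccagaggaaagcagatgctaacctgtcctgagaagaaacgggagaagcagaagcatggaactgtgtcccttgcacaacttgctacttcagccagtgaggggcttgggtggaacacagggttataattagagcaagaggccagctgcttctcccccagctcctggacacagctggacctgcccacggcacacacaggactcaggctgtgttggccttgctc
Fbxo31 promoter, chr8:121578807-121579056, minus strand: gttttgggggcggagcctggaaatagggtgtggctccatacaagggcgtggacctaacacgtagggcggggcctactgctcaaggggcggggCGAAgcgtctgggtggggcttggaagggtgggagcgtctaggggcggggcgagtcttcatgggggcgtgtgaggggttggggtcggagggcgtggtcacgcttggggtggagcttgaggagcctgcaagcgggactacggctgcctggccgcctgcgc
Stub1 promoter, chr17:25832920-25833169, minus strand: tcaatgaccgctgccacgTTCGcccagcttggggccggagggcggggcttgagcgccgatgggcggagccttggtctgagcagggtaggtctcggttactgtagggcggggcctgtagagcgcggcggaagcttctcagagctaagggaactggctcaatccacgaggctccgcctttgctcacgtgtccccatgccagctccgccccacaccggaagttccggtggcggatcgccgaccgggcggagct
Nedd4 promoter, chr9:72662081-72662330, plus strand: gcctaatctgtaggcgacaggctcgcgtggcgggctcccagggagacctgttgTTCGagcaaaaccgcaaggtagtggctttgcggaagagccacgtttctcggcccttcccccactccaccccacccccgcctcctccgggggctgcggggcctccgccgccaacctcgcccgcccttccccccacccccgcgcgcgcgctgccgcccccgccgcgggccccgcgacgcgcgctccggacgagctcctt

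The 250 bases of the Fbxo31 promoter lay wholly under the replicate 1 peak and for 194 bases under the replicate 2 peak. At Nedd4 the peaks of both replicates covered all 250 bases. At Stub1 replicate 1 covered 250 bases and replicate 2 covered 138, in 2 separate peaks. At Trim63 the peaks of the replicates covered 101 and 88 bases, all at the end of the sequence farthest from the start. No peak touched the Fbxo40 sequence.

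Fbxo32 encodes atrogin-1, also called MAFbx, an F-box protein that marks the myogenic factor MyoD and the translation factor eIF3f for degradation. The gene spans 58175879 to 58214892 on chromosome 15. Its shared peak stood at the higher-coordinate end, where the fold enrichment (summit signal over the caller's local background, the authors' value) was 19.6 in replicate 1 and 9.95 in replicate 2. The summits lay 130 bp and 210 bp inside the gene. The pileup, the number of fragments covering the summit as recovered from the deposited fold and p-value, was 74 in replicate 1 (95% Poisson interval 58.1 to 92.9) and 33 in replicate 2 (interval 22.7 to 46.3). As recovered, these intervals did not overlap, but the libraries need not be of equal depth. The ratio of the pileups was 2.24, against a median of 1.28 at the start peaks of 10775 genes, and 92.6% of those genes had a ratio no higher. With replicate 1 divided by that median its interval began at 45.4 fragments and overlapped that of replicate 2. Replicate 2 had a further summit 708 bp outside the same end with a fold of 4.74, under the wide replicate 1 peak of 1416 bp. Inside the gene, replicate 1 alone had a peak 955 bp from the end with a fold of 8.84. Replicate 2 alone had one 4520 bp outside it with a fold of 4.93. No peak of either replicate lay in the rest of the gene body.

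Fbxo30 encodes MUSA1, an F-box protein of denervation atrophy that is held down by BMP signalling. The gene spans 11281330 to 11305750 on chromosome 10. Its peak had folds of 9.95 in replicate 1 and 15.2 in replicate 2. The summits lay 54 bp and 50 bp before the start, 4 bp apart. The pileups were 82 and 88 fragments, among the highest of these genes, over local backgrounds of 7.35 and 4.87 fragments. The lowest background in each list was 2.13 and 1.64 fragments, so the folds at Fbxo30 were taken over a raised background. By fold the peak stood at a percentile of 75.6 of the replicate 1 list, and by pileup at 97.9. In replicate 2 the percentiles were 73.1 by fold and 98.9 by pileup. It was also wide, at 1400 bp and 1270 bp, and was the only peak of either replicate within 5 kb of the gene.

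Fbxo31 encodes an F-box protein known for marking cyclin D1 for degradation, and Fbxo21 one named SMART in muscle. Fbxo31 spans 121549443 to 121578864 on chromosome 8, on the minus strand. Its start peak had folds of 24.6 and 25.8 and pileups of 76 and 67 fragments, with summits 174 bp and 148 bp inside the gene. These 2 folds gave Fbxo31 the highest lower value of the 9 genes, and the replicates were close. A transfer RNA gene, n-TMcat17, lies within 1 kb of the same summits (539 bp and 513 bp from them at its nearer end), so the peak is within reach of both. Fbxo21 spans 117976770 to 118010198 on chromosome 5. Its start peak had folds of 22.3 and 22.4 and pileups of 69 and 58 fragments. The summits lay 107 bp and 452 bp inside the gene, 345 bp apart, the widest gap between replicates at any of the 8 start peaks.

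Beyond the start, Fbxo31 and Fbxo21 held many further peaks, most of them in replicate 1 alone. Most peaks of the replicate 1 list were also unshared, with 22955 of 65606 overlapping a replicate 2 peak. Fbxo31 had 3 more shared peaks inside it. A pair of them lay toward the far end of the gene, 2829 bp from its lower-coordinate end with folds of 12.5 in both replicates, and 4826 bp from it with folds of 14.7 and 15.2. The remaining one, 7864 bp from the start in replicate 1, had folds of 9.58 and 4.55. Another 10 peaks of Fbxo31 were found in replicate 1 alone, with folds from 5.11 to 11.5. Fbxo21 had 1 more shared peak, 3276 bp from the start in replicate 1, with folds of 6.07 and 4.55, and 9 peaks of replicate 1 alone with folds from 3.19 to 7.98.

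More than 1 kb away from both ends, Fbxo31 held 4.74 replicate 1 peaks per 10 kb and Fbxo21 held 2.86. Over 13890 protein-coding genes of 10 kb or more the median was 0.111 and the mean 0.684, and Fbxo31 and Fbxo21 stood at percentiles of 97.5 and 93.1. In replicate 2 the densities were 1.09 and 0.318 per 10 kb, at percentiles of 94.8 and 82.6. Fbxo32, Fbxo30 and Traf6, of like length, had 0 such peaks in either replicate. A count of 0 was common, at 44.5% of those genes in replicate 1 and 66.6% in replicate 2. The background at every Fbxo31 and Fbxo21 peak of replicate 1 was the lowest of its list, 2.13 fragments. That was usual, since only 21.4% of all replicate 1 peaks had a raised background.

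**Figure D1:**
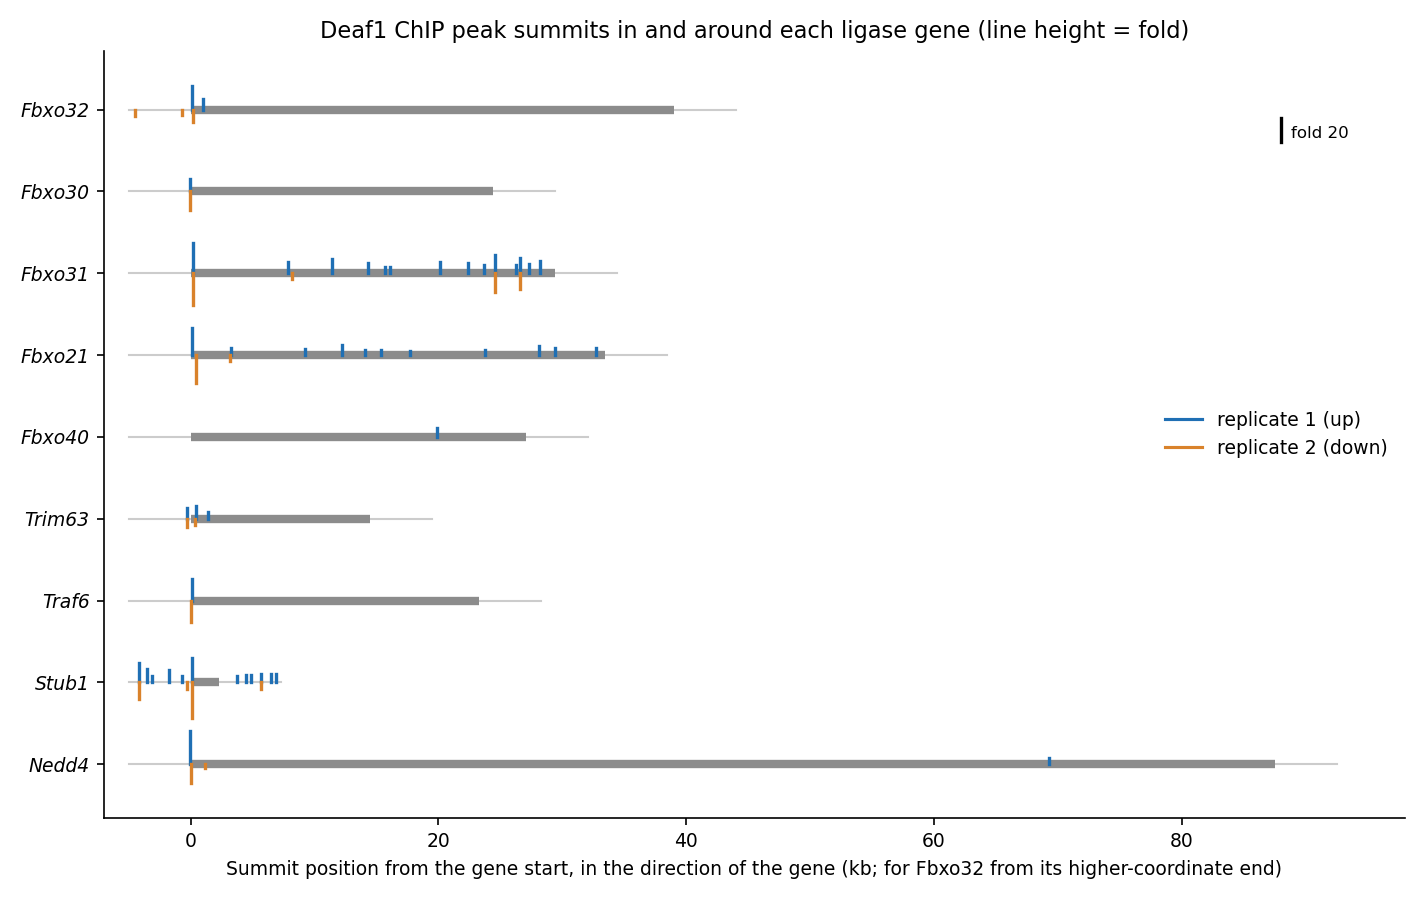
Each vertical line is the summit of a Deaf1 ChIP peak, placed by its distance in kb from the gene start (x axis), with replicate 1 drawn upward, replicate 2 downward and line height in proportion to fold. Grey bars are the gene spans and thin lines the 5 kb windows. Fbxo31, with 14 replicate 1 peaks, and Fbxo21, with 11, carry peaks along the gene, while Fbxo30 and Traf6 have 1 peak per replicate, at the start.

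Fbxo40 encodes a muscle F-box protein that binds the insulin receptor substrate IRS1. The gene spans 36963461 to 36990530 on chromosome 16, on the minus strand. Replicate 1 had a single peak, inside the gene and 19914 bp from its start, with a fold of 7.34, a −log10 q of 13.2 and a pileup of 22 fragments. Replicate 2 had 0 peaks within 5 kb of the gene. RefSeq gives Fbxo40 another start, 11394 bp inside the gene. The nearest summits to that start lay 8520 bp away in replicate 1 and 32915 bp away in replicate 2. A peak list shows only what passed the caller's threshold, so signal below it at the Fbxo40 start cannot be read from these data.

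Trim63 encodes MuRF1, a RING ligase that marks myosin and other thick-filament proteins. The gene spans 134315120 to 134329629 on chromosome 4. A pair of shared peaks flanked its start, and both were weak. The upstream one had summits 297 bp and 281 bp before the start, with folds of 8.94 in replicate 1 and 6.45 in replicate 2 and pileups of 27 (interval 17.8 to 39.3) and 16 (interval 9.15 to 26.0) fragments. The other lay 392 bp and 343 bp inside the gene with folds of 10.5 and 4.93. Replicate 1 alone had a peak 1397 bp inside with a fold of 5.75. By its strongest shared peak, taken as the one with the highest lower fold and here the upstream one, Trim63 had the lowest folds of the 8 ligase genes with a shared start peak, and 10.1% of the 10775 genes with such a peak had a replicate 1 fold as low or lower (12.4% in replicate 2). The peak inside the gene had a higher replicate 1 fold (10.5) than Fbxo30 (9.95), with pileups of 32 and 12 fragments.

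Traf6 encodes a RING ligase that acts as an adaptor in NF-kB signalling and is known for joining ubiquitin into signalling chains. The gene spans 101678420 to 101701668 on chromosome 2. Its 1 peak per replicate had a fold of 17.6 in both replicates. The pileups were 54 and 46 fragments and the summits lay 91 bp and 46 bp inside the gene.

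Stub1 encodes CHIP, a U-box ligase that works with heat shock chaperones on misfolded proteins. It is a short gene of 2286 bp, from 25830634 to 25832919 on chromosome 17, on the minus strand, with close neighbours. Its start peak had folds of 20.1 in replicate 1 and 29.3 in replicate 2. The summits lay 67 bp and 122 bp inside the gene. The pileups were 86 and 82 fragments, nearly equal, and the backgrounds were 3.34 and 1.83. The neighbour Jmjd8 ends 1009 bp from the replicate 1 summit and 954 bp from the replicate 2 summit, so this peak was not within 1 kb of Jmjd8 in both replicates. The 5 kb window around Stub1 held 12 peaks of replicate 1 and 4 of replicate 2, of which 1 in each lay inside Stub1. Away from the Stub1 start the shared peaks lay at neighbours. There was 1 inside Wdr24 with folds of 6.70 and 5.69, and 1 at the start of Rhbdl1 with folds of 15.6 and 13.7.

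Nedd4 encodes a HECT ligase that acts on membrane receptors and rises in unloaded and denervated muscle. It is the longest of the 9 genes, from 72662331 to 72749851 on chromosome 9. Its start peak had folds of 26.8 in replicate 1 and 15.2 in replicate 2. The replicate 1 summit lay 34 bp before the start and the replicate 2 summit 10 bp after it. The pileups were 87 and 80 fragments over backgrounds of 2.29 and 4.33, so here too the replicates differed more in background than in fragments. The peak was wide, at 1647 bp and 1177 bp, at width percentiles of 98.99 and 96.7 of the lists. A small replicate 2 peak 1140 bp inside the gene, under the edge of the wide replicate 1 peak, had a fold of 2.70 and a −log10 q of 1.05, which is weaker than a q-value of 0.05. Replicate 1 alone had a peak 69261 bp inside with a fold of 4.79. RefSeq gives Nedd4 another start, 30967 bp inside the gene, and the nearest summits to it lay 31001 bp away in replicate 1 and 29827 bp in replicate 2.

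**Figure D2:**
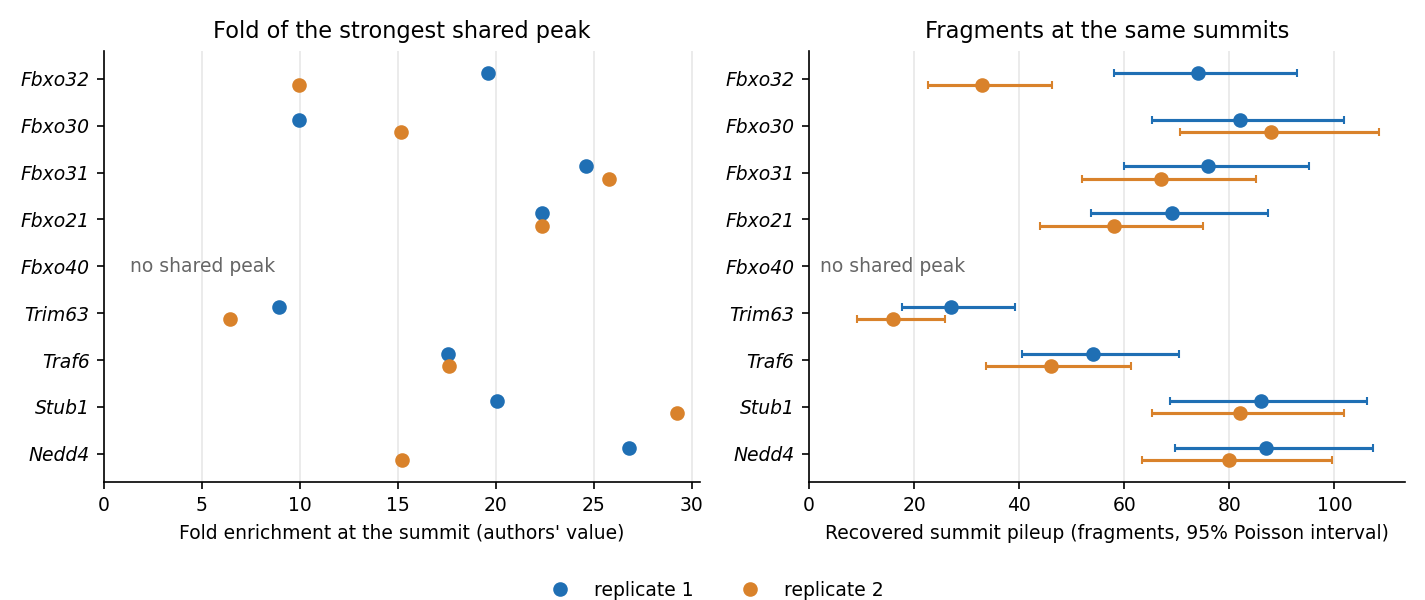
The left panel plots the authors' fold enrichment of the strongest shared peak of each gene in replicate 1 (blue) and replicate 2 (orange), and the right panel the recovered number of fragments at the same summits with 95% Poisson intervals (counting error only). The replicates differ most in fragments at Fbxo32 (74 and 33, not adjusted for depth), and Trim63 has the fewest fragments in both replicates (27 and 16).

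Ranked by the lower of the replicate folds, the order was Fbxo31 (24.6), Fbxo21 (22.3), Stub1 (20.1), Traf6 (17.6), Nedd4 (15.2), Fbxo32 (9.95), Fbxo30 (9.95) and Trim63 (6.45). By replicate 1 pileup the order changed, with Nedd4 at 87 fragments, Stub1 at 86, Fbxo30 at 82, Fbxo31 at 76, Fbxo32 at 74, Fbxo21 at 69, Traf6 at 54 and Trim63 at 27. Neighbours in this order had overlapping counting intervals, apart from Traf6 and the upstream Trim63 peak. The median start-peak fold of the 8 genes was 19.8 in replicate 1 and 16.4 in replicate 2, and over all 10775 genes with a shared start peak it was 16.6 and 15.2. Their median pileups were 75 and 62.5 fragments, against 60 and 45 over those genes. Replicate 1 had the higher fold at 3 of the 8 genes (Fbxo32, Trim63 and Nedd4), and at 6336 of the 10775. At 7 of the 8, all but Fbxo21, the summits of the replicates lay within 100 bp of each other, which held for 81.1% of the genes.

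**Figure D3:**
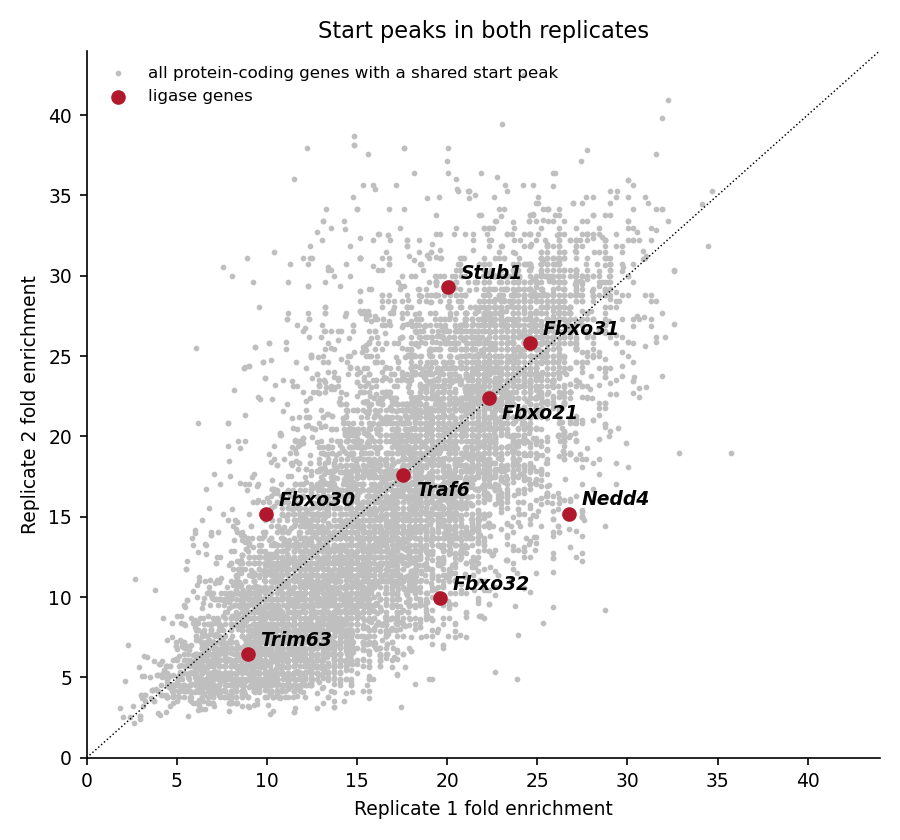
Each grey point is a protein-coding gene with a shared peak within 1 kb of its start, placed by the authors' fold in replicate 1 (x axis) and replicate 2 (y axis), with the ligase genes in red and equal folds on the dotted line. Fbxo31, Fbxo21 and Traf6 lie on the line, Nedd4 and Fbxo32 below it, Stub1 and Fbxo30 above it, and Trim63 near the low corner.

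Promoter sequence differed among the ligase genes. The RefSeq promoter table held 8 of the 9 genes, all but Fbxo32. Of these, 6 were CpG-rich (at least 55% G and C, and a ratio of observed to expected CpG of at least 0.6), namely Fbxo30, Fbxo31, Fbxo21, Traf6, Stub1 and Nedd4. All 6 had a shared start peak. Trim63 and Fbxo40 fell outside that class, with CpG ratios of 0.198 and 0.0992, while those of the 6 ran from 0.669 (Traf6) to 1.09 (Fbxo30). Trim63 had the weakest start peak and Fbxo40 none. Among the 6 the folds did not follow the CpG ratio. Fbxo30, with the highest ratio, had folds of 9.95 and 15.2, and Fbxo31, at 0.741, had 24.6 and 25.8. The Fbxo30 folds were taken over a raised background, and its pileups were 82 and 88 fragments, against 76 and 67 at Fbxo31. Traf6, with the lowest ratio of the 6, had their lowest pileups, 54 and 46 fragments. A link between the ratio and the pileup was not tested. Over the 17274 genes in the table, 83.4% of 6465 CpG-rich genes had a shared start peak, against 28.5% of the 10809 others. At called genes the median of the lower fold was 15.4 in the CpG-rich class and 11.3 in the other.

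**Figure D4:**
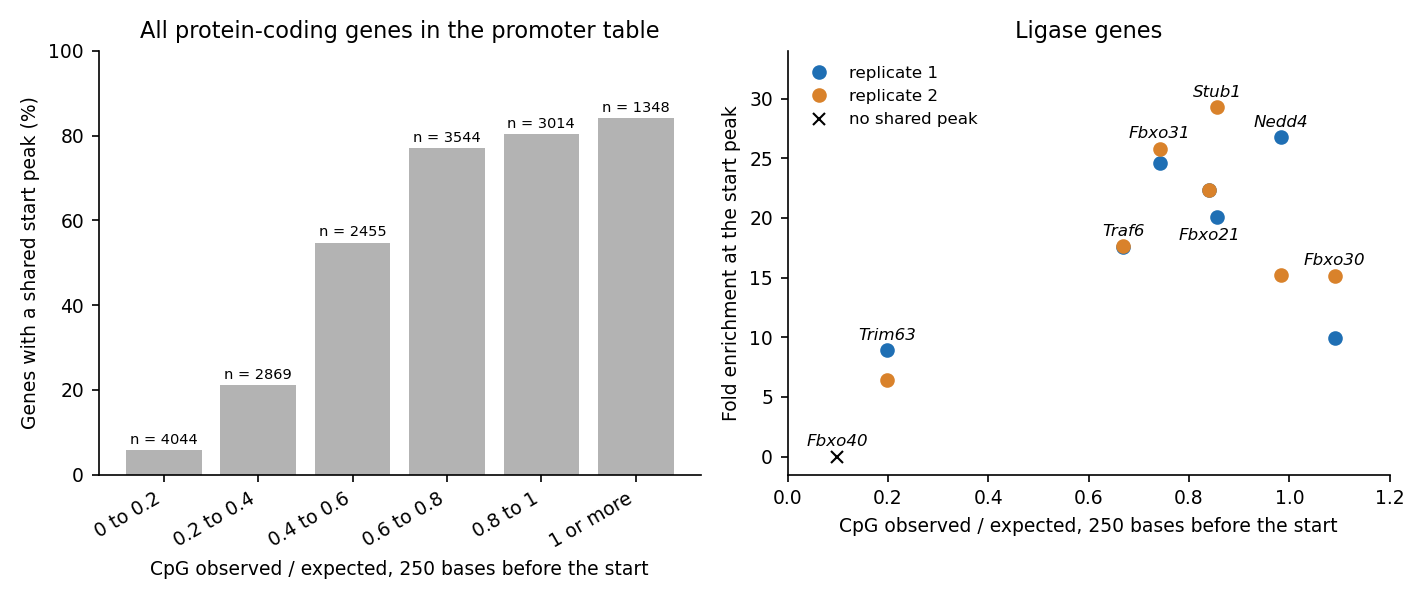
The left panel gives the share of protein-coding genes with a shared start peak (y axis, %) by the ratio of observed to expected CpG in the 250 bases before the start (x axis), with the number of genes above each bar. The right panel plots the start-peak folds of the ligase genes against the same ratio, with Fbxo40, which had no shared peak, as a cross at 0. The share rose from 5.76% in the lowest class to 84.1% in the highest.

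The letters TTCG were searched on both strands in those 250 bases. They occurred in 5 of the 8 ligase promoters, Fbxo30, Fbxo31, Fbxo21, Stub1 and Nedd4, and in 42.8% of all 17274 promoters (58.9% of the CpG-rich ones and 33.1% of the others). At 4 of them a TTCG or CGAA lay under the start peaks of both replicates, 104 bases before the RefSeq start at Fbxo30, 158 at Fbxo31, 167 at Fbxo21 and 197 at Nedd4. At Stub1 it lay 232 bases before the start, under the replicate 1 start peak but outside the replicate 2 start peak, in a separate weak replicate 2 peak with a fold of 5.05. Fbxo21 had another 222 bases before the start, under the replicate 1 peak. The peaks of replicates 1 and 2 covered most of the window searched at Fbxo30 (250 and 250 bases), Nedd4 (250 and 250), Fbxo31 (250 and 194) and Fbxo21 (230 and 185). Most places in the window were thus under a peak, and a link between TTCG and the peaks was not tested. The RefSeq start used for Fbxo30 lies 257 bp inside its span, and that for Fbxo31 58 bp. Traf6, Trim63 and Fbxo40 had none in this window. Pairs of TTCG on either strand with 1 to 12 bases between them occurred in 0 of the 8 and in 2.62% of all promoters.

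The FOXO element GTAAACA, searched on both strands, occurred in 1 of the 8 promoters, that of Trim63, and in 2.59% of all promoters. Its share was 1.30% of the CpG-rich promoters and 3.37% of the others, the class of Trim63. As printed above the element reads TGTTTAC, begins 194 bases before the Trim63 start, and lay inside the upstream Deaf1 peak of both replicates. The E-box CANNTG, the site of MyoD and other muscle factors, which reads the same on both strands, occurred in 4 of the 8 and in 62.7% of all promoters. Its share was 50.4% of the CpG-rich promoters and 70.1% of the others, the class of Trim63 and Fbxo40. Fbxo40 had 4 copies, Trim63 had 3, Traf6 had 2 and Stub1 had 1. In the 8 promoters 0 bases belonged to more than 1 of these motifs.

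Around these ligases, genes of the same system were described from 5 lists with 130 genes, of which the ubiquitin, E1 and E2 genes had shared start peaks most often. In that list 25 of 28 genes (89.3%) had a shared peak within 1 kb of the start, with median folds of 20.1 and 20.4. The conjugating enzyme genes Ube2e1, with folds of 31.3 and 33.0, and Ube2g1, with 25.5 and 31.5, were its highest. Of the SCF and neddylation core 12 of 18 (66.7%) had one, with the scaffold gene Cul1 at 26.8 and 30.3 and Nae1, which encodes part of the NEDD8-activating enzyme, at 19.2 and 18.6 at a peak within reach of Car7. Ube2m, the gene of a NEDD8 conjugating enzyme, had no peak of either replicate within 5 kb.

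Of 32 other ligases of muscle and related pathways 22 (68.8%) had a shared start peak, led by Traf3 with folds of 25.2 and 26.9 and the HECT gene Wwp1 with 23.6 and 26.2. Klhl41, a muscle Kelch gene, had no peak within 5 kb. Trim54 and Trim55, the closest relatives of Trim63, named here after their values were seen, had no shared start peak but had one elsewhere within 5 kb. Of 25 transcription factors and cofactors upstream of the atrophy ligases 19 (76.0%) had a shared start peak. The highest were Cebpb, with folds of 29.4 and 34.9, and the NF-kB gene Rela, with 28.7 and 33.8, and Atf4 had no peak.

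Of 27 genes of proteins that these ligases act on 15 (55.6%) had a shared start peak, near the share of all protein-coding genes. The growth factor signalling genes Igf1r, with folds of 28.1 and 29.96, and Irs1, with 27.5 and 28.4, were the highest. At 5 genes of this list, among them Mybpc1, Myh1, Myh2 and Myh4 of the thick filament, no peak of either replicate lay within 5 kb. By the wider rule, inside or within 5 kb, the counts were 27 of 28 for ubiquitin, E1 and E2, 17 of 18 for the SCF core, 30 of 32 for other ligases, 24 of 25 for the factors and 18 of 27 (66.7%) for the targets, where 63.4% of all protein-coding genes had one. The atrophy ligases, at 8 of 9 (88.9%), stood below all of these lists but the targets by that rule.

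**Figure D5:**
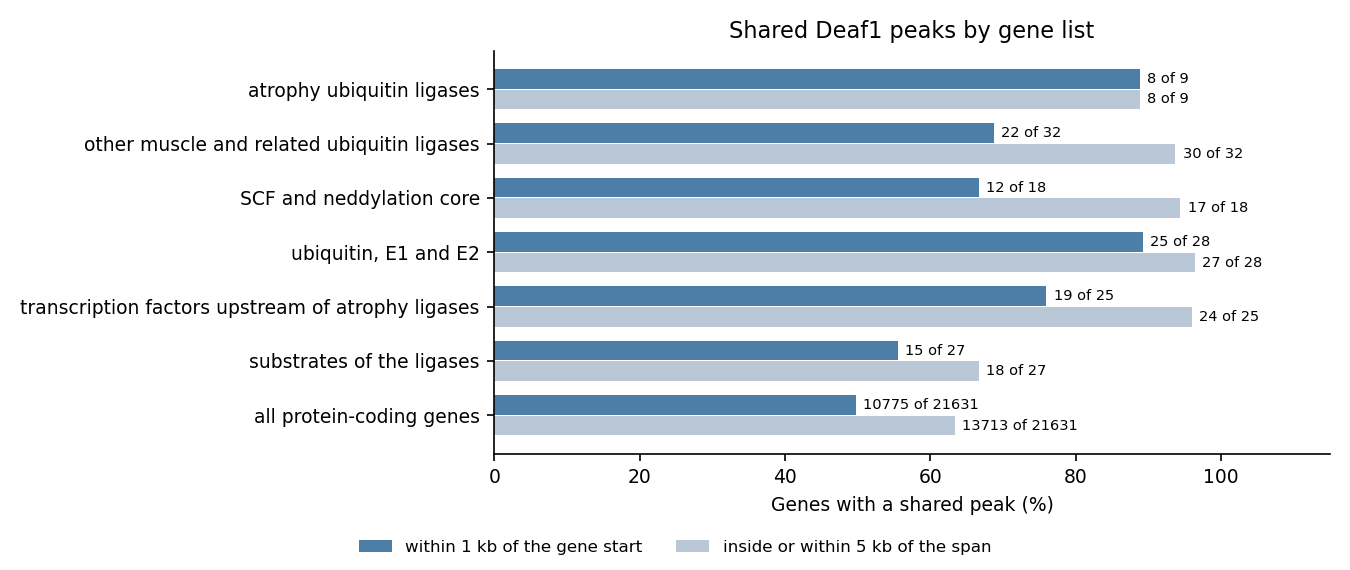
Bars give the share of genes (x axis, %) with a Deaf1 peak in both replicates, within 1 kb of the gene start (dark) or inside or within 5 kb of the span (light), for the atrophy ligases, 5 related lists and all protein-coding genes, with counts beside the bars. The atrophy ligases (8 of 9) and the ubiquitin, E1 and E2 genes (25 of 28) have the highest shares by the narrower rule. By the wider rule the atrophy ligases (88.9%) stand below every related list but the substrates (66.7%).

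The replicate lists differed in length, with 65606 peaks in replicate 1 and 26503 in replicate 2, and the number of reads is not given by them. In the windows of the 9 genes replicate 1 had 47 peaks, of which 15 were shared, and replicate 2 had 19, of which 18 were shared. Over the whole lists, 22955 of the 65606 replicate 1 peaks and 24895 of the 26503 replicate 2 peaks overlapped a peak of the other replicate. The 32 unshared peaks of replicate 1 had folds from 3.19 to 11.5. No control peaks were set against these regions, so Deaf1 binding and signal that any antibody gives at open promoters cannot be told apart. Whether the replicates were grown separately is not in the labels, and the spread between them can be technical.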

How the data were processed

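Per the labels, chromatin of C2C12 cells was crosslinked with formaldehyde, digested with enzymes and precipitated with a Deaf1 antibody. The tools named by the submitters' processing notes are BWA and MACS2, with build mm10. Their settings, and the control library for peak calling, were not stated. The authors deposited 1 peak list per ChIP replicate, so replicates were called separately. Fold enrichment (a ratio), −log10 p and −log10 q are the authors' deposited values per peak, and percentiles are within a list. Folds set side by side across the replicates are not adjusted for depth or list length. The deposited score was the −log10 p times 10 without decimals in 100% of peaks. The deposited starts were shifted to 1-based positions.

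Pileup and background were solved from each deposited fold, taken as pileup plus 1 over background plus 1, and p, the Poisson chance of more fragments than the pileup. The largest misfit in −log10 p was 4.07e-05. Intervals are exact Poisson intervals at 95% and cover counting error only. Gene spans and promoter sequences are from RefSeq, GRCm38.p6. Strand came from the promoter table for 17274 genes, whose start is the 5′ end of the span. For the other 4357, Fbxo32 among them, either end was used. Spans run over all RefSeq models, so starts inside a span are missed. The scripts were tested on simulated peaks.

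The 9 genes and the 5 lists were chosen with earlier results of these data known. Of the 130 list entries all matched, 2 through a synonym. Beside the 9 genes, the text names the 2 genes of each list with the highest lower fold at a shared start peak and up to 4 with no peak. The CpG classes were set after seeing the data. Python 3.11.15, numpy 2.4.6, pandas 2.3.3 and scipy 1.17.1 were used.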

Additional observations from a re-analysis of the deposited data

How the results depend on the processing

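No paired analysis was possible because there was no peak list of the inputs, whose replicate numbers match those of the ChIP samples. The count of ligase genes with a shared peak within 5 kb was 8 of 9 and ran from 8 to 9 when either replicate was left out, since Fbxo40 had a peak in replicate 1 alone (all protein-coding genes: 64.1% with replicate 2 alone, 72.8% with replicate 1 alone). It was 7 with a −log10 q of 10 or more, which removed Trim63 (all genes: 56.4%), and 6 inside the span alone (all genes: 51.9%). The span alone removed Fbxo30, with both summits just before the start, and Nedd4, with only the replicate 1 summit before it. The count at the gene start was 8 in all settings but a −log10 q of 10 or more (7, without Trim63, all genes 43.7%) and summits within 100 bp (7, without Fbxo21, all genes 41.6%). None of the 72 alternatives run on these and the list counts moved a count by over 1.5 times. The 8 of 9 could not rise that far, nor could the count of any list but the targets, so looser settings could not pass this limit there. A fall from 8 to 6 also stayed inside it. The alternatives comprised stricter q or fold, overlap of 50% of the shorter peak, other windows, equal list lengths, single replicates and any RefSeq start. That last setting was chosen after seeing the data, as was the depth-adjusted pileup at Fbxo32. In ranks by pileup in place of fold, Fbxo30 and Nedd4 moved most, Fbxo30 from a percentile of 75.6 to 97.9 in replicate 1 and Nedd4 from 73.9 to 96.8 in replicate 2. The lists carry no read depth, and a site without a peak may hold signal below the caller's threshold.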
